A study of Mus musculus with 4 samples.

Results

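Meiotic recombination begins when SPO11 cuts DNA in early prophase spermatocytes. The recombinases that follow, DMC1 among them, pair the broken ends with the homologous chromosome, and a subset of the joints becomes crossovers that hold homologs together until the first meiotic division. HORMA-domain proteins on the chromosome axis promote the breaks and survey unsynapsed regions, and the MutS and MutL homologs stabilise and resolve the joints. The 8 genes described here, Spo11, Hormad1, Hormad2, Dmc1, Meiob, Msh4, Msh5 and Mlh3, are core factors of this machinery and were taken from the table by their symbols. All 8 were present among the 25265 genes of the deposited table, and all 8 passed the filter on low counts.

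The data came from testes of C57BL/6 mice at postnatal day 56, with no enrichment of a cell type stated. Of 4 libraries, 2 were labelled control and 2 were labelled Ythdf2-vKO, and the series title describes the mutation as specific to germ cells. YTHDF2 is a reader of N6-methyladenosine (m6A) that promotes the decay of RNAs carrying the mark. The genotype of the controls beyond the word control, the driver of the deletion and the number of animals per library are not given in the sources used here. P-values therefore measure only the spread between these libraries, which may be technical.

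Counts of Ythdf2, the targeted gene, were no lower in the vKO-labelled libraries. They came to 1193 and 1604 in control, and to 1774 and 1807 in the vKO-labelled libraries, a log2 fold change of 0.35 (SE 0.13) with an adjusted p of 0.238. The groups are therefore named by their labels throughout. Total counts per library ranged from 24862518 to 29561182. In edgeR (quasi-likelihood F test, Benjamini-Hochberg adjusted), 83 of the 21132 genes that passed the filter reached an adjusted p under 0.05, and such genes are termed called.

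The recombination genes were well expressed in every library and showed no called difference between the groups. None of the 8 passed the threshold in edgeR, against 0.393% of all genes tested. In a DESeq2 Wald test none passed either, with 217 genes called over the whole table. At an unadjusted p under 0.05, 0 of the 8 were found, against 14.1% of all genes tested. The fitted log2 fold changes lay between -0.24 and 0.19 with a median of -0.18, against a median of 0.00 over all genes tested. Estimates were below 0 for 6 of the 8, against 49.7% of all genes tested, and the sign of Hormad1 turned with an offset for GC content. The 95% intervals of the 8 fold changes reached down to 0.676-fold, for Hormad2, and up to 1.51-fold, for Msh5.

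**Figure D1:**
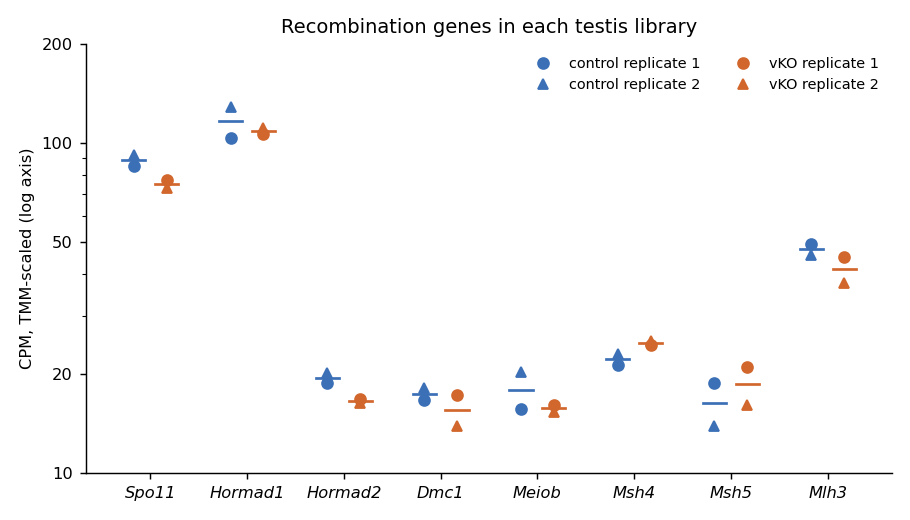
TMM-scaled counts per 1000000 counts (CPM, log axis) of the 8 recombination genes in each library; circles are replicate 1, triangles replicate 2, blue control, orange the vKO-labelled libraries, and bars the group means. Hormad1 and Spo11 sit above the other 6 genes in all 4 libraries, and the groups lie close together for every gene.

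Levels between genes were compared per length, as TMM-scaled counts per 1000000 counts (CPM) per kilobase of merged exons. Hormad1 was the most abundant, at 60.0 and 74.7 CPM per kilobase in control and 61.8 and 64.4 in the vKO-labelled libraries. Spo11 came next, at 21.8 and 23.6 in control and 19.8 and 18.7 in the vKO-labelled libraries. Both genes stood clear of the other 6 in every library. Meiob followed at 9.34 ± 1.27 CPM per kilobase (SD over the 4 libraries). Dmc1 (6.76 ± 0.748) and Hormad2 (6.57 ± 0.652) changed order between libraries, as did Msh4 (3.40 ± 0.242) and Msh5 (3.15 ± 0.553). Mlh3 (5.90 ± 0.643) lay below Dmc1 and Hormad2 in every library. The order of the lower 6 depended on the length used. Divided by the longest transcript instead, their means lay between 6.04 CPM per kilobase for Msh5 and 9.48 for Meiob, while Hormad1 (74.6) and Spo11 (22.7) kept their places.

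Spo11 (ENSMUSG00000005883; GRCm38 chromosome 2, 172977700 to 172993576, plus strand) encodes the topoisomerase-like enzyme that makes the meiotic breaks. Its counts came to 1999 and 2771 in control, and to 2075 and 1973 in the vKO-labelled libraries. After scaling these were 85.5 and 92.4 CPM against 77.5 and 73.1 CPM, so that both vKO-labelled libraries lay below both controls. The log2 fold change was -0.24 (SE 0.12, 95% interval -0.51 to 0.03), with an adjusted p of 0.419. This was the lowest adjusted p of the 8 genes.

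Hormad1 (ENSMUSG00000028109; chromosome 3, 95559677 to 95587671, plus strand) and Hormad2 (ENSMUSG00000020419; chromosome 11, 4345814 to 4441105, minus strand) encode paralogous proteins of the unsynapsed axis. HORMAD1 is needed for normal break numbers and synapsis, and HORMAD2 for the checkpoint on unsynapsed chromosomes. Hormad1 was counted 2426 and 3873 times in control and 2860 and 3002 times in the vKO-labelled libraries, or 104 and 129 CPM against 107 and 111 CPM. The groups overlapped, and the gap between the controls, 0.31 on the log2 scale, exceeded the fitted difference of -0.10 (SE 0.13, adjusted p 0.813). Hormad2 was counted 438 and 603 times in control and 446 and 441 times in the vKO-labelled libraries. Scaled, these were 18.7 and 20.1 CPM against 16.7 and 16.3 CPM, and the groups did not overlap. Its log2 fold change was -0.24 (SE 0.15, 95% interval -0.56 to 0.09, adjusted p 0.530).

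Hormad1 has near-identical copies elsewhere in the genome, which bears on how its reads could be assigned. The gene Gm15529 on chromosome 6 is 97.7% identical to Hormad1 over 922 of the 1511 nt of its longest transcript, and Gm7167 on chromosome 15 is 92.1% identical over 1112 nt. A stretch of 90 bases in the coding sequence of Hormad1 (transcript bases 502 to 591) is shown beside the aligned bases of Gm15529 (258 to 347). Both were taken from the GENCODE M21 transcripts, with the 6 bases that differ in capitals. No aligned stretch of that length without gaps in the Hormad1 coding sequence held more differences. The pair shows how little sequence separates the genes where they align.
Hormad1: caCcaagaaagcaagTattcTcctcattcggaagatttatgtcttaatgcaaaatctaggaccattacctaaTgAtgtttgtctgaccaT
Gm15529: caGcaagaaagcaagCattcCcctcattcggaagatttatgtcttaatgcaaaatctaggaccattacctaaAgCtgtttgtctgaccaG
Gm15529 was counted 8 and 8 times in control and 3 and 4 times in the vKO-labelled libraries. Gm7167 was counted 41 and 32 times in control and 27 and 48 times in the vKO-labelled libraries. Both were small beside the 2426 or more counts of Hormad1 in each library. How reads matching several places were counted is not given in the sources used here, so the level of Hormad1 is uncertain by the reads that may have been discarded. No other gene of the 8 had a copy at 90% identity or more over 200 nt. The only annotated gene overlapping an exon of the 8 was the small nucleolar RNA Gm24395, on the strand opposite to Msh4.

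Dmc1 (ENSMUSG00000022429; chromosome 15, 79561497 to 79605109, minus strand) encodes the meiosis-specific recombinase. Its counts came to 389 and 544 in control, and to 460 and 375 in the vKO-labelled libraries, or 16.6 and 18.1 CPM against 17.2 and 13.9 CPM. vKO-labelled replicate 1 lay between the controls and replicate 2 below them, and the log2 fold change was -0.16 (SE 0.17, adjusted p 0.725). Meiob (ENSMUSG00000024155; chromosome 17, 24804289 to 24839788, plus strand) encodes a meiotic relative of replication protein A that binds recombination intermediates. Meiob was counted 365 and 606 times in control and 432 and 413 times in the vKO-labelled libraries, or 15.6 and 20.2 CPM against 16.1 and 15.3 CPM. Only control replicate 2 stood apart, and the log2 fold change was -0.19 (SE 0.17, adjusted p 0.678). Without that library it was 0.01, and without control replicate 1 it was -0.37.

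The crossover factors did not share a direction. MSH4 and MSH5 form a heterodimer that embraces recombination joints, and MLH3 acts in resolving them as crossovers. Msh4 (ENSMUSG00000005493; chromosome 3, 153857149 to 153906138, minus strand) was counted 499 and 686 times in control and 655 and 676 times in the vKO-labelled libraries. Scaled, these were 21.3 and 22.9 CPM against 24.5 and 25.1 CPM, the only member with both vKO-labelled libraries above both controls. Its log2 fold change was 0.16 (SE 0.14, 95% interval -0.15 to 0.47, adjusted p 0.675). Msh5 (ENSMUSG00000007035; chromosome 17, 35028605 to 35046745, minus strand) was counted 437 and 418 times in control and 561 and 434 times in the vKO-labelled libraries, or 18.7 and 13.9 CPM against 21 and 16.1 CPM. The spread within each group was the widest of the 8 genes, at 0.41 and 0.37 on the log2 scale, and the groups overlapped. Its log2 fold change was 0.19 (SE 0.19, 95% interval -0.22 to 0.60, adjusted p 0.724). Mlh3 (ENSMUSG00000021245; chromosome 12, 85234520 to 85270599, minus strand) was counted 1155 and 1377 times in control and 1208 and 1021 times in the vKO-labelled libraries. Scaled, these were 49.4 and 45.9 CPM against 45.1 and 37.8 CPM, with no overlap, and the log2 fold change was -0.20 (SE 0.14, adjusted p 0.574).

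**Figure D2:**
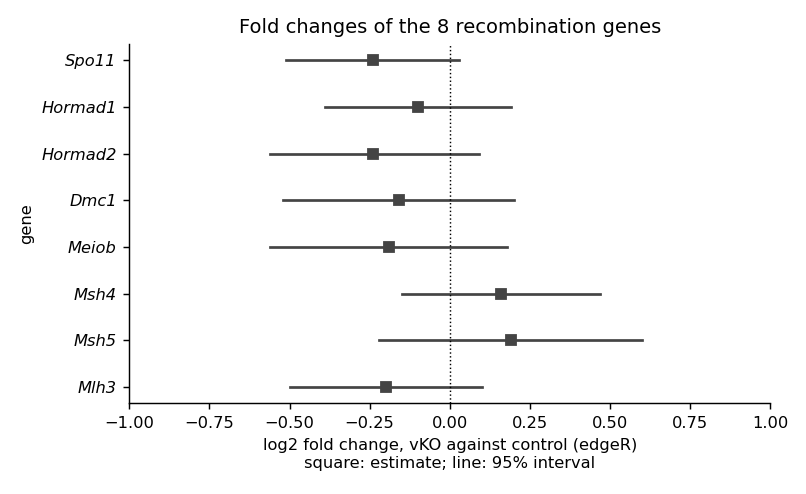
Log2 fold change of each recombination gene in the vKO-labelled libraries against control (x axis), from edgeR; squares are estimates and lines 95% intervals. Every interval includes 0, with 6 estimates to the left of it and those of Msh4 and Msh5 to the right.

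Groups that did not overlap were found for 4 of the 8 genes, Spo11, Hormad2 and Mlh3 lower and Msh4 higher in the vKO-labelled libraries. Over all genes tested the groups did not overlap in 45.3%, with 22.6% lower and 22.7% higher, so the count of 4 is near the background. In the authors' deposited table the 8 log2 fold changes lay between -0.24 and 0.18. The adjusted p-values of the authors' deposited table lay between 0.542, for Spo11, and 0.900, for Hormad1, and 1.32% of the genes given an adjusted p in that table were under 0.05. The DESeq2 Wald test run here gave the same rounded values for the 8 genes, so the deposited table adds no separate result.

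**Figure D3:**
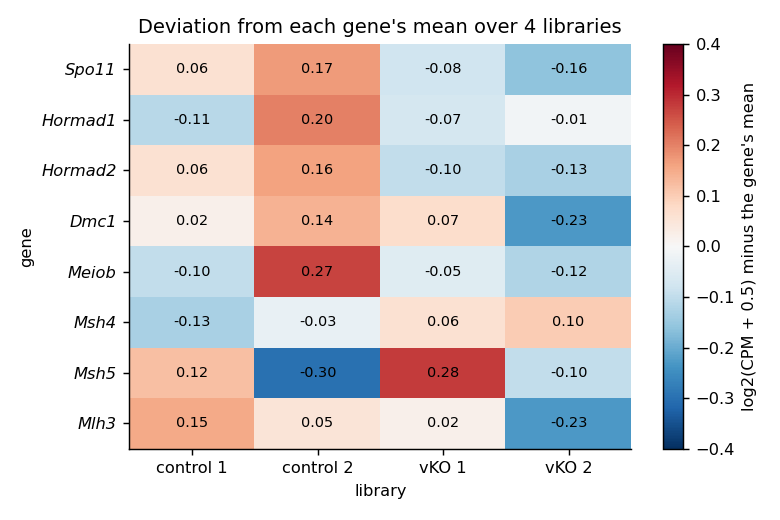
Deviation of log2(CPM + 0.5) from each gene's mean over the 4 libraries (columns) for the 8 genes (rows), in red above and blue below the mean. Control replicate 2 was above the mean for 6 of the genes, up to 0.27 for Meiob, and 0.30 below it for Msh5.

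The members differed in base composition, and so did the libraries. GC content of the longest transcript ran from 35.8% in Hormad1 to 55.6% in Msh5, with the other 6 genes between 40.1% and 45.7%, against a median of 48.6% over the table. Across 17817 genes, the Spearman correlation of GC content with a library's deviation from the mean was 0.0249 and -0.406 in control replicates 1 and 2, and 0.258 and 0.194 in the vKO-labelled libraries. These are descriptions across genes, which are not independent replicates. With an offset for GC content in each library, the log2 fold change of Hormad1 was 0.01, that of Msh5 was 0.04, that of Meiob was -0.10 and that of Dmc1 was -0.09. Spo11 (-0.20), Hormad2 (-0.18), Mlh3 (-0.15) and Msh4 (0.21) moved less. The median of the 8 under this offset was -0.10, and none was called.

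The transcripts also differed in the pentamer GGACT, a frequent form of the consensus around m6A sites. It was searched on the transcript strand of the longest transcript. It occurred 0 times in Spo11, 1 time each in Hormad2 and Dmc1, 2 times in Hormad1 and 3 times in Meiob. Mlh3 had 5, Msh4 had 6 and Msh5 had 7. Per kilobase, Msh5 (2.43) and Msh4 (1.80) were the highest of the 8, followed by Meiob (1.69), against a median of 1.03 over 17297 protein-coding genes. A match is a description of the letters, and methylation was not measured here. The longest annotated transcript need not be the form expressed in testis, and the forms expressed were not examined. That of Spo11 had 8 exons over 3619 nt. The same limit holds for the GC content.

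No gene was called among 58 others of the recombination pathway, all of them tested, against 0.393% of all genes tested. The count is near that share, and the median log2 fold change of the 58 was -0.05. Unadjusted p-values under 0.05 were found for 5 of the 58 with estimates below 0 and for 1 above 0, against 14.1% of all genes tested. A DESeq2 Wald test also called 0 of the 58, with 217 genes called over the whole table. Other edgeR fits called a few of them, with more genes called over the whole table as well. Without control replicate 1, 5 of the 58 were called against 6.82% of all genes tested, and without control replicate 2, 2 were called against 4.93%. With the replicate number as a block 1 was called against 4.81%, and with the GC offset and the block together 1 was called against 2.74%.

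Break formation was represented by 7 further genes, with 4 estimates below 0 and 3 above and a median of -0.06. The lowest unadjusted p-value among those below 0 was that of Iho1, an axis-bound partner of the break machinery (23.0 CPM in control and 18.0 in the vKO-labelled libraries, log2 fold change -0.35, SE 0.16, adjusted p 0.335), and among those above 0 that of Mei1 (0.23, SE 0.17, adjusted p 0.606). The 22 strand exchange and repair genes had a median of -0.07, with 14 below 0. Rpa1, which encodes the large subunit of replication protein A, had 220 CPM in control and 172 in the vKO-labelled libraries, or -0.35 on the log2 scale (SE 0.12, adjusted p 0.220). Swi5, a cofactor of the recombinases, had 0.08 (SE 0.12, adjusted p 0.812).

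The 8 genes of HORMA remodelling and checkpoint signalling split evenly by direction, with a median of 0.01. Trip13, the ATPase that removes HORMAD proteins from synapsed axes, had 12.5 CPM in control and 16.2 in the vKO-labelled libraries (log2 fold change 0.37, SE 0.17, adjusted p 0.357), and Topbp1 had -0.15 (SE 0.12, adjusted p 0.663). The 16 crossover genes had a median of -0.05, with 11 below 0. Prr19, a crossover factor that works with CNTD1, had 56.8 and 71.7 CPM in the 2 groups (0.34, SE 0.14, adjusted p 0.314), and Hfm1, the crossover helicase, had 57.9 and 49.4 (-0.23, SE 0.13, adjusted p 0.482). Of 5 mismatch repair relatives of the MSH and MLH members, the median was 0.06. Msh3, which takes part in the repair of insertion and deletion loops, had 39.8 CPM in control and 29.5 in the vKO-labelled libraries (-0.43, SE 0.14), and an adjusted p of 0.196 was the lowest among the 58. Pms1 had 0.37 (SE 0.29, adjusted p 0.622).

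The closest comparison was with 13 genes of the synaptonemal complex and meiotic cohesin, which are expressed at overlapping stages. Of these, 10 had estimates below 0 and the median was -0.15, beside -0.18 for the 8 members. The median of the 13 was -0.04 with an offset for GC content, -0.08 without control replicate 2 and -0.23 without control replicate 1. None of the 13 was called by edgeR, against 0.393% of all genes tested, or by DESeq2. An unadjusted p under 0.05 in edgeR was found for 1 of them, against 14.1% of all genes tested. Without control replicate 1 edgeR called 2 of the 13, against 6.82% of all genes tested. Syce1, a central element component, had 401 CPM in control and 319 in the vKO-labelled libraries (-0.33, SE 0.12, adjusted p 0.234), and the cohesin Rec8 had 0.13 (SE 0.14, adjusted p 0.748). Relative to the mean log2 level of these 13 genes in the same library, Spo11 differed by -0.12 and Hormad2 by -0.11 between the groups, while Msh4 differed by 0.28, and for these 3 genes the groups did not overlap. Msh5 differed by 0.30 with overlapping groups, and the other 4 members differed by -0.08 to 0.04, also with overlap. The share of all genes without overlap was not computed for such ratios. In CPM it was 45.3% of all genes tested. The difference between Msh4 and Spo11 was singled out after the values were seen. On the log2 scale, Msh4 stood at -1.98 and -1.99 relative to Spo11 in control and at -1.64 and -1.53 in the vKO-labelled libraries. That change in the ratio was not tested.

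Whole-testis RNA mixes cell types, so that fewer cells of a type and less RNA per cell cannot be told apart. Germ cell and somatic markers were present in all 4 libraries, and no marker on any list was at 0 in every library. The 10 pachytene spermatocyte markers summed to 7448 and 6193 CPM in control and to 6859 and 6456 CPM in the vKO-labelled libraries. Their median log2 fold change was -0.15, with 6 estimates below 0 and 4 above. The 10 elongating spermatid markers summed to 16325 and 13351 CPM against 12746 and 13098, with a median of -0.23 and 9 of 10 below 0. Sertoli cell markers had estimates above 0 in 10 of 10 genes. They summed to 992 and 1032 CPM in control and to 1428 and 1252 CPM in the vKO-labelled libraries, with a median of 0.46, and Wt1 among them was called (log2 fold change 0.71, SE 0.13, adjusted p 0.0418). Leydig cell markers had a median of 0.38 and spermatogonia 0.21. Endothelial cells had 0.55 over 4 tested genes, and erythrocytes 0.80 over 3. Some of these genes had few counts, down to 7 for Pecam1 in vKO-labelled replicate 2 and 8 for Hbb-bt in control replicate 1. Round spermatids had a median of 0.02, macrophages 0.07 and peritubular myoid cells -0.05. Several of these medians moved with the libraries used. When a library was left out, that of macrophages ran from -0.09 to 0.47, that of peritubular myoid cells from -0.40 to 0.48 and that of erythrocytes from 0.42 to 1.10. For spermatogonia it stood at 0.05 under the GC offset, and at 0.08 when vKO-labelled replicate 1 was left out. The part of cell composition in the members' estimates was not tested. Relative to the pachytene markers of the same library, Hormad1 differed by -0.02 between the groups, Spo11 by -0.17 and Msh4 by 0.23. Msh5 differed by 0.25, Hormad2 by -0.16, Mlh3 by -0.13, Meiob by -0.10 and Dmc1 by -0.09. On this scale the groups did not overlap for Spo11, Mlh3 and Msh4, and they overlapped for the rest, Hormad2 included. The margins were narrow. Spo11 was at -2.15 in control replicate 1 and -2.17 in vKO-labelled replicate 1, and Mlh3 at -2.94 in both of these libraries. Msh4 was at -3.85 in control replicate 2 and -3.81 in vKO-labelled replicate 1. The share of all genes without overlap on this scale was not computed.

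**Figure D4:**
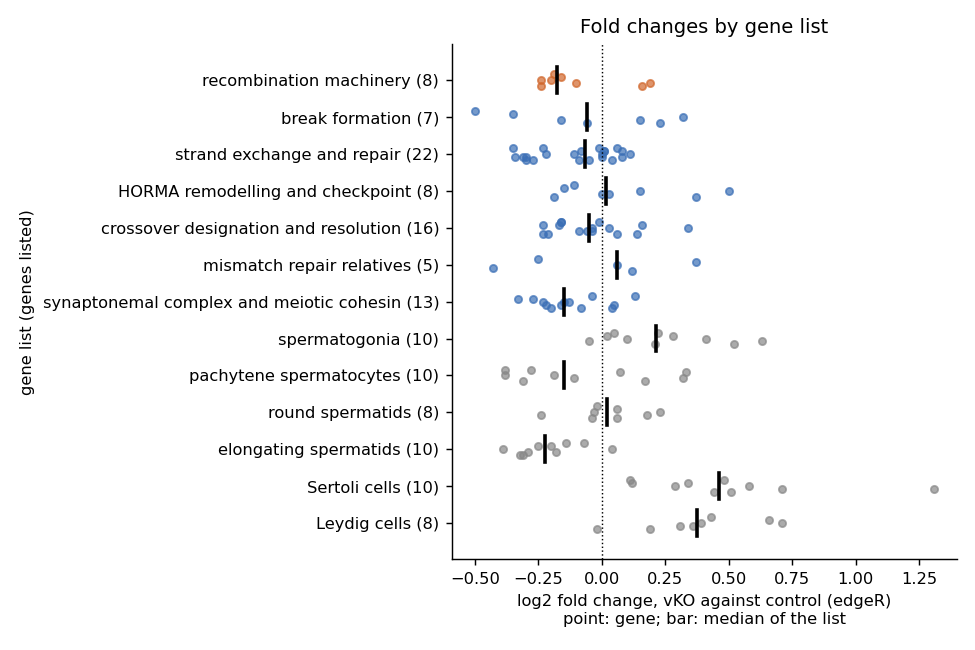
Log2 fold change in the vKO-labelled libraries against control (x axis) for every tested gene of each list (rows, with the number of genes listed); bars are medians. The recombination genes (orange) lie within the range of the pathway, mismatch repair and synaptonemal lists (blue). Their median of -0.18 is below the blue medians, of which the lowest is -0.15. The Sertoli list lies to the right at a median of 0.46.

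The genes whose profile over the 4 libraries was most like that of the members were found by the root mean square distance of centred log2 CPM from the members' median profile. Among 17819 genes with a mean of at least 1 CPM, the 5 nearest were Dnah11, Copb1, Smarca5, Aspm and Toe1, at distances of 0.017 to 0.020, against a median distance of 0.19. The 25th percentile of the distances was 0.13. The median profile did not stand for every member. It was 0.04 and 0.15 in control and -0.01 and -0.13 in the vKO-labelled libraries. Msh4 was at -0.13 and -0.03 against 0.06 and 0.10, and Msh5 at 0.12 and -0.30 against 0.28 and -0.10. With 4 libraries the likeness is a description only.

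The estimates depended on single libraries. Without control replicate 2, the median of the 8 was -0.06, Hormad1 was at 0.07 and Msh5 at -0.01. Without control replicate 1, the median was -0.24 and Msh5 was at 0.40. Without vKO-labelled replicate 1, Msh5 was at -0.02 and Dmc1 at -0.32, and without the replicate 2 library, Msh5 was at 0.36, Dmc1 at -0.02 and Mlh3 at -0.08. Spo11 (-0.30 to -0.18), Hormad2 (-0.29 to -0.17) and Msh4 (0.11 to 0.23) moved least over the 14 alternatives. No member was called in any of them.

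**Figure D5:**
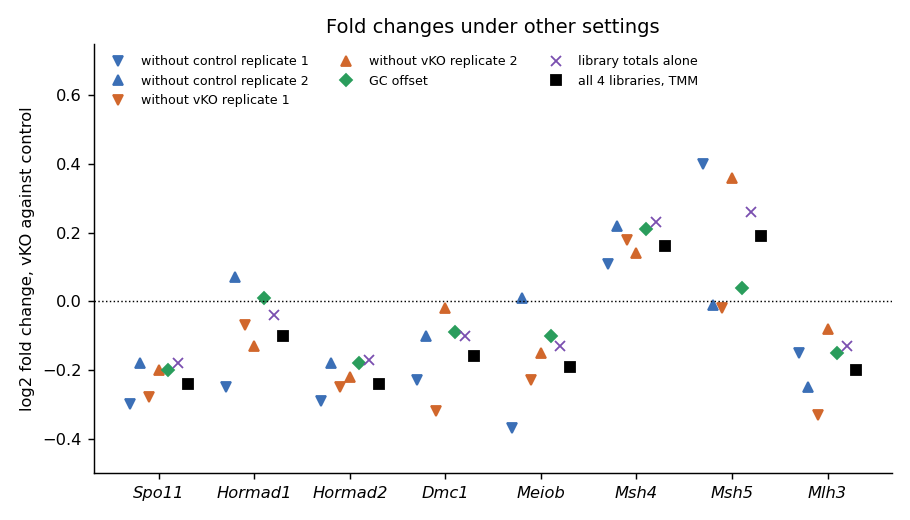
Log2 fold change of each recombination gene (y axis) with all 4 libraries (black squares), without each library in turn (triangles), with a GC offset (diamonds) and with library totals alone (crosses). Spo11, Hormad2, Dmc1 and Mlh3 stay below 0 and Msh4 above it in all those plotted, while Hormad1, Meiob and Msh5 cross it.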

How the data were processed

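Per the labels' protocols, testis RNA was depleted of ribosomal RNA and made into directional libraries. The submitters' processing notes name HISAT2 2.1.0 and HTSeq 0.6.1p1. Strand use and genome build are not given in the sources used here. The authors deposited raw read counts per gene and library, with their mean normalized count (a signal), log2 fold change with its standard error, a Wald statistic (a score), p-value and adjusted p-value, per the file headers. Recomputing the deposited mean from the counts gave relative differences up to 4.93e-10.

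Counts were tested with edgeR 4.0.16 (limma 3.58.1, R 4.3.3), using TMM scaling, the filterByExpr filter, robust quasi-likelihood estimation with genotype as the only term, a prior count of 0.125 and Benjamini-Hochberg adjustment over 21132 genes. CPM are TMM-scaled, and the SDs given with CPM per kilobase are over the 4 libraries. Replicates differed by more than sampling noise (chi-square per degree of freedom 17.8 in control and 7.31 in vKO), so no libraries were merged. Intervals cover the fit's error only. Annotation, lengths and GC content came from GENCODE M21 (GRCm38), joined by identifier; the authors' build may differ. In total, 5 listed genes were matched through older symbols.

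The members and lists were chosen with earlier results of these data known. All members were named. Of each pathway list the gene with the lowest unadjusted p in each direction was named, together with any called gene of any list. Alternatives were DESeq2 size factors, library totals, other filters, no robust estimation, DESeq2 1.42.0, the replicate number as a block, a prior count of 2, a GC offset (a spline with 5 degrees of freedom) and leaving out each library.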

Additional observations from a re-analysis of the deposited data

How the results depend on the processing

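The members' lack of calls held under every alternative run: 0 of 8 were called in each, and adjusted p-values ranged from 0.170 to 0.999 over 112 refitted values. Shares of all genes called were low too, at 0.393% in the main fit and 4.81% with the replicate block. With the GC offset and the block together the share was 2.74%. With 8 genes, 0 calls is near those shares. A prior count of 2 leaves the p-values of the main fit unchanged by construction, so only its log2 fold changes could move. Of the 112 values, 106 kept their direction and 6 did not. Hormad1 was at 0.01 with the GC offset, at 0.01 with the GC offset with replicate block and at 0.07 without control replicate 2. Meiob was at 0.01 without control replicate 2, and Msh5 at -0.01 without control replicate 2 and at -0.02 without vKO replicate 1. Leaving out a library gave ranges of -0.25 to 0.07 for Hormad1, -0.37 to 0.01 for Meiob and -0.02 to 0.40 for Msh5. The median of the 8 ranged from -0.24 to -0.06 when a library was left out. In those fits the lone library of a group is assumed to vary like the others.

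The number of genes called over all genes tested, 83, was less stable. It was 218 with library totals alone, which also moved the median of all genes to 0.07 and the share of higher calls from 71.1% to 83.0%. It was 217 with a DESeq2 Wald test, 143 with the GC offset (53.8% higher), 1017 with the replicate block (61.7% higher), 578 with the GC offset with replicate block (45.3% higher), and 35 to 1512 when a library was left out. The cause was not tested. Whether same-numbered libraries shared more than a number is not given in the sources used here. Their deviations correlated at 0.108 across genes, which over 2 pairs cannot settle it. The block changed no member's call. With 2 libraries a group, the members' 95% intervals set the precision.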
